A study of Homo sapiens with 9 samples.

Results

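The genes described here encode the shared protein core of the spliceosome, the RNA and protein machine that removes introns from pre-mRNA. They were chosen by name as rows of the deposited expression table: the Sm ring, the proteins of the U1 and U2 particles, the U2 auxiliary factor, the LSm ring of U6, the proteins of the U5 and U4/U6.U5 particles, and proteins of the U11/U12 particle. The table held all 40 of them among 26929 genes. Of these 40, 35 passed the filter on low values (a mean of at least 5 normalised counts over the 9 libraries), as did 12301 of all genes. The remaining 5 were listed at 0 in every library.

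Each small nuclear ribonucleoprotein, or snRNP, is built on a small nuclear RNA around which Sm proteins, or LSm proteins in the case of U6, close a ring. U1 reads the start of an intron, U2 with its auxiliary factor U2AF reads the branch site and the intron's end, and the U4/U6.U5 tri-snRNP then joins and is rearranged into the catalytic machine. Genes of U2 recognition, SF3B1 and U2AF1 among them, are mutated in a part of myeloid neoplasms.

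All cells were MV4-11, an established human acute myeloid leukaemia line. One group received JPX-0700 for 24 h, another JPX-0750 for 24 h, and the control received the vehicle DMSO for 24 h, with 3 libraries in each group. The series title presents the compounds as degraders acting on both STAT3 and STAT5, which are transcription factors; the labels and protocols give no dose. QuantSeq libraries are designed to sample the 3′ ends of transcripts with a poly(A) tail, so a value is meant to reflect transcript number rather than transcript length. The share of reads on structured small RNA genes, given below, differed between the groups. Members are ranked by level below only to choose which to describe. The sources used here do not say whether replicates were separate cultures, so p-values measure only the spread between these samples.

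Libraries held between 726043 and 6305586 reads on genes, and the deepest compound library (1941860 reads) was shallower than the shallowest DMSO library (2701317 reads). Of 13 myeloid markers, 8 were above 0 in all 9 libraries and none was at 0 throughout, although MPO and HOXA9 did not exceed 14.6 and 4.61 normalised counts. Their summed level was 2836 to 4296 normalised counts with JPX-0700, 2571 to 5343 with JPX-0750 and 6075 to 10754 with DMSO. Among the markers of other cell types, HBB and EPCAM were at 0 throughout, and the list summed to 48.4 to 91.7 with JPX-0700, 50.02 to 129.9 with JPX-0750 and 29.6 to 60.2 with DMSO. In each group 1 library stood apart by detecting the fewest genes: JPX-0700 replicate 3, JPX-0750 replicate 3 and DMSO replicate 1. Correlations of log2 values across all tested genes were 0.611 and 0.623 between JPX-0700 replicate 3 and its partners, against 0.843 between those partners. They were 0.684 and 0.686, against 0.886, for JPX-0750, and 0.869 to 0.941 among DMSO libraries. Structured small RNA genes took 9.31% ± 0.896 of reads with JPX-0700, 12.3% ± 1.19 with JPX-0750 and 0.136% ± 0.114 with DMSO (SD, n = 3 each). The part of the marker levels, the depth, the libraries' detection and the small RNA share in the results below was not tested, apart from the values given with libraries or small RNA genes left out.

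Of the 35 tested spliceosome genes, LSM4 and TXNL4A passed the threshold, both downward. The threshold was a Benjamini-Hochberg adjusted p under 0.05 from limma over all 12301 tested genes, and "rose" and "fell" refer to it. With JPX-0700, 0 of 35 members rose and 0 fell, against 5.28% of all tested genes that rose and 0.496% that fell. Only PRPF3 and LSM4 had an unadjusted p under 0.05 in that comparison, and the smallest adjusted p was 0.0965. Limma-voom on the recovered reads also called 0 members, where 1.10% of all tested genes fell. With JPX-0750, 0 members rose and 2 fell (5.71%), LSM4 and TXNL4A, against 3.9% of all tested genes that rose and 0.0732% that fell. In the comparison of both compounds (the mean of their groups) with DMSO, 0 members rose and 1 fell, LSM4 (2.86%), against 6.04% and 0.48% of all tested genes. The comparisons share the DMSO libraries. That of both compounds also reuses the libraries of each compound, so its calls are not independent of the other comparisons.

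Most members had negative fold changes. The median log2 fold change of the 35 members was -0.34 with JPX-0700, where that of all tested genes was 0.14. It was -0.33 with JPX-0750, where that of all tested genes was 0.26. Members with a negative fold change numbered 24 of 35 (68.6%) with JPX-0700 and 23 of 35 (65.7%) with JPX-0750, against 46.5% and 42.5% of all tested genes. These are descriptions of a chosen list, with no test. Scaling the recovered reads to equal totals per library moved the median of all tested genes to -0.50 with JPX-0700 and -0.23 with JPX-0750, and that of the members to -1.06 and -0.87, so the members' median lay below that of all tested genes under that scaling as well. On the deposited scale, a filter at a mean of at least 50 kept 34 members among 7241 genes. The median of all genes tested was then 0.027 with JPX-0700 and 0.088 with JPX-0750. That of the members was -0.32 and -0.33, so the gap was smaller among genes of higher level. In bulk RNA, fewer cells of a type and less RNA per cell cannot be told apart.

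**Figure D1:**
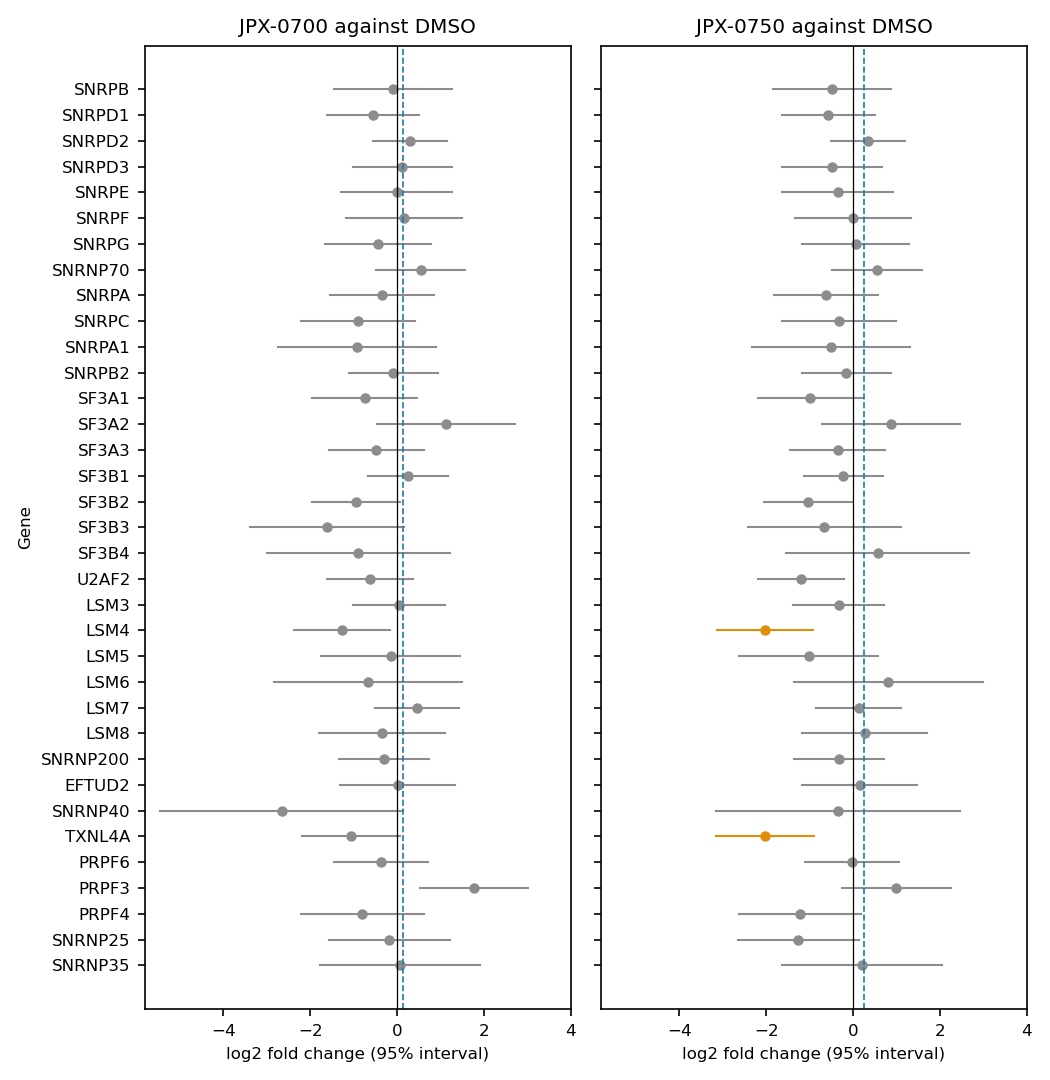
log2 fold changes of the 35 tested members (points) with 95% intervals from limma (lines), JPX-0700 against DMSO on the left and JPX-0750 against DMSO on the right. Coloured genes passed the adjusted threshold, which were LSM4 and TXNL4A with JPX-0750; the dashed line is the median of all 12301 tested genes, 0.14 on the left and 0.26 on the right.

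LSM4 was the member that passed the threshold in 2 comparisons. It is a subunit of the LSm ring, which holds the 3′ end of U6 small nuclear RNA in the nucleus and, with LSM1 in place of LSM8, takes part in mRNA decay in the cytoplasm. The gene lies on chromosome 19 at positions 18306236 to 18323076 (GRCh38.p14, RefSeq). Its normalised counts were 175, 179 and 308 with JPX-0700, 113, 155 and 117 with JPX-0750, and 443, 707 and 439.8 with DMSO. All 6 compound libraries lay below all 3 DMSO libraries. Every JPX-0750 library lay below every JPX-0700 library, which also held for TXNL4A, PRPF3 and SF3B1. How often JPX-0750 lay wholly below JPX-0700 over all tested genes is not given here. Those values rest on 38, 48 and 111 reads with JPX-0700, 33, 34 and 70 with JPX-0750, and 493, 1844 and 817 with DMSO. With JPX-0750 LSM4 fell by 2.02 on the log2 scale (SE 0.52, limma adjusted p = 0.0362), which is 4.05-fold lower. With JPX-0700 its log2 fold change was -1.27 ± 0.52 (SE, limma adjusted p = 0.185), short of the threshold. For both compounds together it fell by 1.65 (SE 0.45, limma adjusted p = 0.0351).

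TXNL4A encodes the small thioredoxin-like U5 protein also known as DIM1, a component of the tri-snRNP. It lies on chromosome 18 at positions 79970813 to 80033936 (GRCh38.p14, RefSeq). Its normalised counts were 189, 175 and 434 with JPX-0700, 130.1, 132 and 108 with JPX-0750, and 529, 595 and 411 with DMSO. All JPX-0750 libraries lay below all DMSO libraries and all JPX-0700 libraries, whereas JPX-0700 replicate 3 lay within the DMSO range. The gene fell by 2.03 with JPX-0750 (SE 0.54, limma adjusted p = 0.0392), which is 4.09-fold lower. Its log2 fold change was -1.05 ± 0.54 with JPX-0700 (SE, limma adjusted p = 0.291) and -1.54 ± 0.46 for both compounds (limma adjusted p = 0.0563). HSBP1L1, which overlaps TXNL4A, was at 46.6 normalised counts or fewer in every library.

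Both calls were near the threshold. Without any single one of the 3 DMSO or the 3 JPX-0750 libraries, the JPX-0750 calls of LSM4 and TXNL4A ended, at adjusted p up to 0.236 and 0.202 (limma), while the log2 fold changes stayed between -2.16 and -1.79 for LSM4 and between -2.18 and -1.91 for TXNL4A. Testing all genes without the filter on low values also ended them, at limma adjusted p of 0.0601 and 0.0643. The call of LSM4 for both compounds ended without the filter (0.0578) and without any one library other than JPX-0700 replicate 3 or JPX-0750 replicate 3, at limma adjusted p up to 0.274. Other alternatives added calls. With JPX-0700, LSM4 and TXNL4A passed under equal totals (-2.003 and -1.78, limma adjusted p = 0.0277 and 0.0442) and without JPX-0700 replicate 3, and LSM4 also passed under quantile normalization. For both compounds TXNL4A passed under equal totals, TMM scaling, quantile normalization, a mean of at least 50, limma-voom and without JPX-0700 replicate 3.

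**Figure D2:**
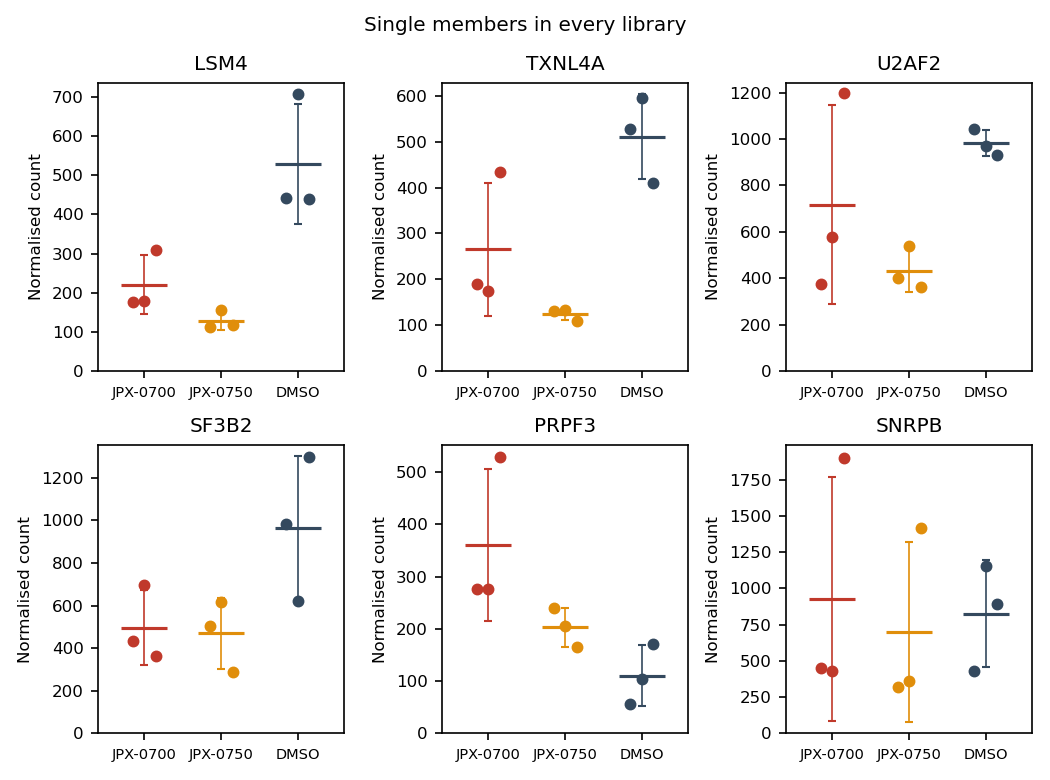
Normalised counts of LSM4, TXNL4A, U2AF2, SF3B2, PRPF3 and SNRPB in every library (points, replicates 1 to 3 from left to right within a group), with group means (bars) and SD (error lines, n = 3). All compound libraries sit below DMSO for LSM4, whereas SNRPB shows JPX-0700 replicate 3 at 1898 and JPX-0750 replicate 3 at 1414, far above their partners.

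The windows upstream of LSM4 and TXNL4A are shown because these were the members past the threshold and the compounds are named for STAT proteins. Each window is the 250 bases before an annotated start, from RefSeq (GRCh38.p14), written in the direction of the gene. Capitals mark matches on either strand to TTCNNNGAA (the STAT-type motif), CCGGAA (ETS), CCAAT (NF-Y), GGGCGG (SP1) or CACGTG (MYC/MAX); adjacent matches in the LSM4 window share 1 base. SF3B1, the branch-site protein of U2, is shown for its match to the STAT-type motif. LSM4 is at chr19:18323077-18323326, TXNL4A at its outer start at chr18:80033937-80034186, and SF3B1 at chr2:197435094-197435343, all on the minus strand.
LSM4: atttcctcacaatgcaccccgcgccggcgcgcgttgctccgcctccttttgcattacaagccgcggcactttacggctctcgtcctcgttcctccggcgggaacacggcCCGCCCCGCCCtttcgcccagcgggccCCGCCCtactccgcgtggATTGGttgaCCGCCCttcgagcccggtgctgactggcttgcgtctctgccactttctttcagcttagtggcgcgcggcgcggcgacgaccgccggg
TXNL4A: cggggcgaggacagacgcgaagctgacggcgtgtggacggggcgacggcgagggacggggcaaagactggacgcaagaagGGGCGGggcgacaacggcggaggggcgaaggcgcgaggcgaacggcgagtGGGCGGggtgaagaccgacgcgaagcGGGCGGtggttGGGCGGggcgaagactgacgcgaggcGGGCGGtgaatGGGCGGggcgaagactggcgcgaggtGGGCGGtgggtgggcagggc
SF3B1: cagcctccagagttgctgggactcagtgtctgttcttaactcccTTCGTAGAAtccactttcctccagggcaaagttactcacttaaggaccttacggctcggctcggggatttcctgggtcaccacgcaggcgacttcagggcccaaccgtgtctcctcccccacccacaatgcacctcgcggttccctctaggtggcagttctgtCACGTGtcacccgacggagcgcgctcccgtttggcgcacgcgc

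RefSeq windows were found for 35 of the 40 members, and 8 of these had several starts, for which a match at any start was counted. These are not the 35 tested members. SNRPD1, SF3B3, LSM6, PRPF3 and SNRNP35 had no window, and the 5 members listed at 0 had one. The genes compared with them below are all genes with a window, not only the 12301 tested. They outnumber the 19072 protein-coding genes of the expression table and were not matched to the members by gene class or level. Whether a difference in share is particular to the members was not tested. The STAT-type motif was present in 2 of the 35, SNRPG and SF3B1 (5.71%), and in 8.09% of all 27305 genes with a window. LSM4 and TXNL4A did not have these letters in their windows. CCGGAA was present in 21 members (60.0%, against 17.2% of all genes), GGGCGG in 24 (68.6%, against 46.2%), CCAAT in 12 (34.3%, against 37.0%) and CACGTG in 2 (5.71%, against 7.73%). In the outer TXNL4A window GGGCGG occurred 7 times, while the window of its inner start (chr18:79988564-79988813) held no match to any of the 5 motifs, and in the LSM4 window it occurred 4 times beside 1 CCAAT match. SF3B1 itself had 696, 675 and 1012 normalised counts with JPX-0700, 520.3, 546 and 616 with JPX-0750, and 553, 533 and 950.2 with DMSO. Neither compound group was separate from DMSO for SF3B1.

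In the Sm ring (7 tested genes of 8), replicate 3 of either compound was higher than its partners for nearly all genes. SNRPD2, the ring gene with the highest mean level, had 1959, 1196 and 2682 normalised counts with JPX-0700, 2019.8, 1969 and 1729 with JPX-0750, and 1268, 1813 and 1490.1 with DMSO. Its groups overlapped, and its log2 fold change for both compounds was 0.31 ± 0.35 (SE, limma adjusted p = 0.653), a sign that turned under equal totals (-0.32) and quantile normalization (-0.061). SNRPB, which encodes SmB and its splice form SmB′, had 452, 429 and 1898 with JPX-0700, 318, 359 and 1414 with JPX-0750, and 430.1, 1155 and 895 with DMSO. Replicates 1 and 2 of both compounds were lower than DMSO replicates 2 and 3, whereas replicate 3 of both compounds was higher than every DMSO library. All 7 ring genes were higher in JPX-0700 replicate 3 than in both of its partners. In JPX-0750 replicate 3 the same held for 6 of 7, and SNRPD2 was the exception.

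Across all 35 members, 23 were higher in JPX-0700 replicate 3 than in both partners and 11 were lower, whereas of all tested genes 32.7% were higher and 55.9% were lower. In JPX-0750 replicate 3, 18 were higher and 11 lower, against 33.0% and 53.0% of all tested genes. In DMSO replicate 1, 13 were higher and 12 lower, against 30.8% and 40.7%. The largest value of a member within a group was a median of 3.22 times its smallest with JPX-0700 (34 members with no 0), 1.82 times with JPX-0750 and 1.78 times with DMSO. SNORD119, a small nucleolar RNA inside an intron of SNRPB, was at 74.5 to 212 normalised counts with JPX-0700, 141 to 312 with JPX-0750 and 0 in all 3 DMSO libraries. The counted strand is not stated in the sources used here. SNRPE and SNRPG have processed pseudogenes, and how reads with several matches were counted is not given either, so their counts are uncertain in that respect.

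**Figure D3:**
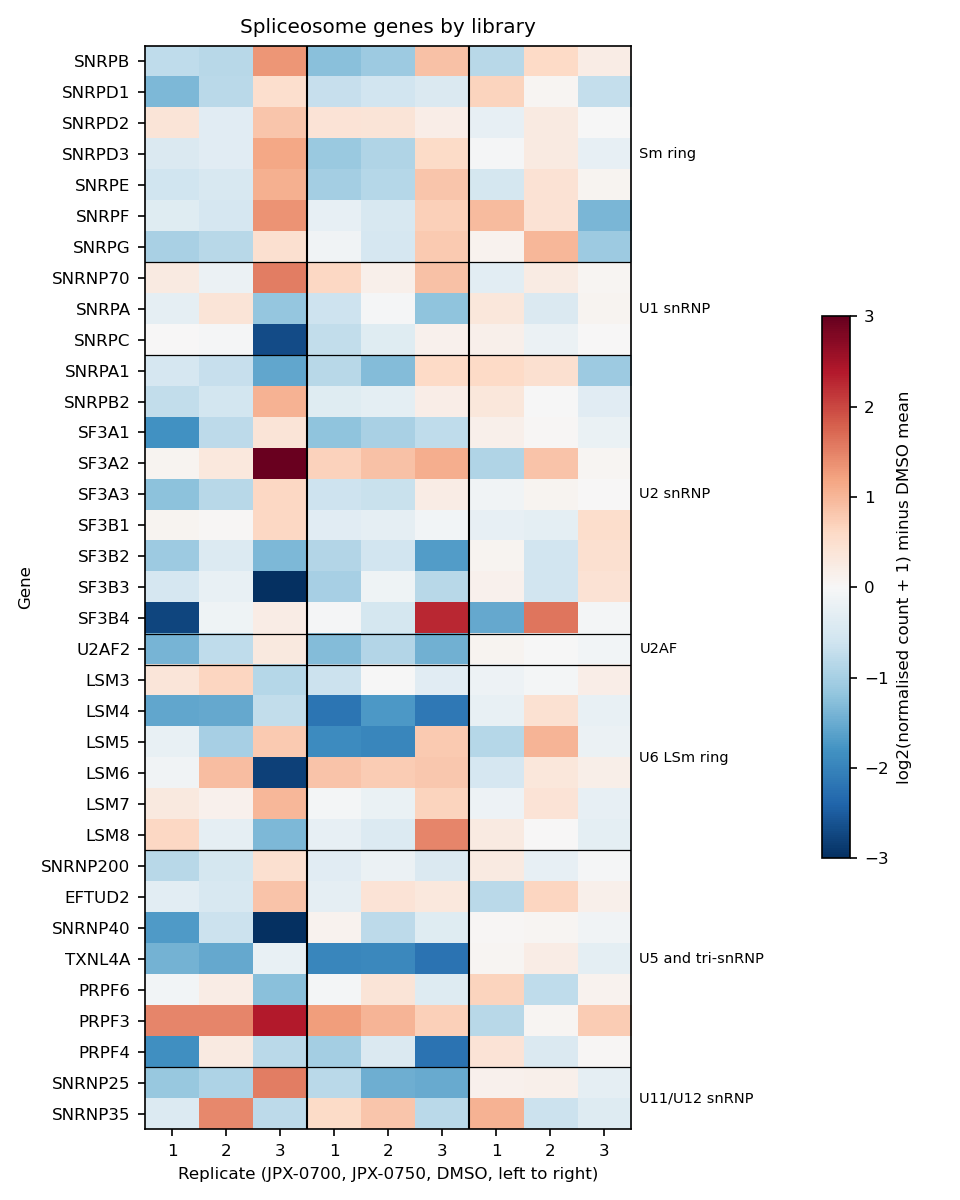
Each cell is a member's log2(normalised count + 1) in a library minus its DMSO mean (red higher, blue lower, colours end at 3 in either direction), with JPX-0700, JPX-0750 and DMSO replicates 1 to 3 from left to right and genes grouped by role. LSM4 and TXNL4A are blue in all 6 compound libraries, and the Sm ring is red in JPX-0700 replicate 3 and blue or pale in replicates 1 and 2.

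Without the 3 libraries that stood apart (an alternative chosen after seeing the data, with 2 libraries left in each group), more members passed the threshold, all of them downward. With JPX-0700, 4 of 35 members fell (11.4%), namely LSM4, SF3A3, SNRPB and TXNL4A, against 3.6% of all tested genes that fell, and 0 rose, against 17.5%. With JPX-0750, 5 fell (14.3%), namely LSM4, LSM5, SNRPB, SNRPE and TXNL4A, against 3.05%, and 0 rose, against 17.8%. For both compounds, 7 fell (20.0%), the 6 named so far and U2AF2, against 5.36%, and 0 rose, against 22.3%. In the fit of all 9 libraries the log2 fold change of SNRPB was -0.09 with JPX-0700 (limma adjusted p = 0.953) and -0.48 with JPX-0750 (0.780), and those with JPX-0750 were -0.35 for SNRPE (0.839) and -1.02 for LSM5 (0.573). Without the 3 libraries SNRPB fell by 1.21 with JPX-0700 (SE 0.31, limma adjusted p = 0.0336) and by 1.58 with JPX-0750 (SE 0.31, limma adjusted p = 0.0142). SNRPE, another ring protein, fell by 1.20 with JPX-0750 (SE 0.31, limma adjusted p = 0.0351). LSM5, a neighbour of LSM4 in the U6 ring, had 71.9, 68.2 and 465 normalised counts with JPX-0750 and 149, 547 and 238 with DMSO, and it fell by 2.35 in this fit (SE 0.49, limma adjusted p = 0.0183).

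Among U1 proteins (3 tested of 3) none passed the threshold in any comparison of all 9 libraries. SNRNP70, the U1 protein that contacts SR proteins, had 571, 421 and 1364 normalised counts with JPX-0700, 729, 523 and 869.6 with JPX-0750, and 383, 562 and 492 with DMSO. Its log2 fold change for both compounds was 0.55 ± 0.43 (SE, limma adjusted p = 0.491), and -0.088 under equal totals. SNRPC, which steadies the pairing of U1 with the start of the intron, was at 521, 511 and 80.6 with JPX-0700, 312, 400.2 and 568 with JPX-0750, and 580.1, 462 and 522 with DMSO. The value of JPX-0700 replicate 3 was the lowest of the 9.

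Of the 9 U2 proteins, all tested, 7 had negative log2 fold changes with JPX-0700 and 7 with JPX-0750, and none passed the threshold on the deposited scale with all 9 libraries. SNRPB2, which binds U2 RNA directly, had the highest level, at 581, 667 and 2023 normalised counts with JPX-0700, 757, 791 and 1121 with JPX-0750, and 1244, 970.1 and 768 with DMSO. The groups overlapped, with a log2 fold change for both compounds of -0.12 ± 0.42 (SE, limma adjusted p = 0.900), whose sign turned without DMSO replicate 1 (0.058) or JPX-0700 replicate 1 (0.049). SF3B2, a subunit of the SF3b complex that carries SF3B1, had 433, 697 and 361 with JPX-0700, 503, 618 and 288 with JPX-0750, and 981, 622 and 1296 with DMSO. Its JPX-0750 libraries lay wholly below DMSO, though only narrowly (618 against 622), at a log2 fold change of -1.04 ± 0.48 (SE, limma adjusted p = 0.332). For both compounds it was -0.998 ± 0.42 (limma adjusted p = 0.191), and SF3B2 passed the threshold under equal totals (-1.63 ± 0.44, limma adjusted p = 0.0369) and with limma-voom. SF3A1 was likewise wholly below DMSO with JPX-0750, at 171, 200.1 and 229.9 against 436, 406 and 343 (-0.98 ± 0.58, limma adjusted p = 0.460), and it passed for both compounds without JPX-0700 replicate 3. SF3A2 and SF3B4 were the members with positive values with JPX-0750, at log2 fold changes of 0.88 and 0.57, and both overlapped DMSO.

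U2AF2, the large U2AF subunit that binds the pyrimidine tract, had 373, 578 and 1198 normalised counts with JPX-0700, 401, 537 and 359.8 with JPX-0750, and 1043, 970.1 and 932 with DMSO. Every JPX-0750 library and JPX-0700 replicates 1 and 2 were below DMSO, and JPX-0700 replicate 3 was above it. The log2 fold change was -0.62 ± 0.47 with JPX-0700 (SE, limma adjusted p = 0.480), -1.20 ± 0.47 with JPX-0750 (limma adjusted p = 0.225) and -0.91 ± 0.41 for both compounds (limma adjusted p = 0.229). For both compounds U2AF2 passed the threshold under equal totals (-1.55, limma adjusted p = 0.0187), under quantile normalization (-1.20, 0.0432), with limma-voom (-1.17, 0.0352) and without JPX-0700 replicate 3 (-1.14, 0.0212). With JPX-0750 it passed under equal totals, in a fit of only the compared groups and without JPX-0700 replicate 3.

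In the U6 ring (6 tested of 7), LSM7 had the highest level, at 595, 533 and 973 normalised counts with JPX-0700, 466, 423 and 769.7 with JPX-0750, and 436, 646 and 411 with DMSO. Its groups overlapped (0.30 ± 0.40 for both compounds, SE, limma adjusted p = 0.713), and the sign turned under equal totals (-0.34) and without the 3 libraries that stood apart (-0.045). LSM6 had 82.2, 77.3 and 80.0 with JPX-0750 and 31.4, 56.8 and 50.6 with DMSO, the member whose JPX-0750 libraries lay wholly above DMSO. Its log2 fold change was 0.82 ± 1.03 (SE, limma adjusted p = 0.761). With JPX-0750, 3 of the 6 ring genes had positive and 3 had negative fold changes.

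Among U5 and tri-snRNP proteins (7 tested of 9), PRPF6, which bridges U5 and U4/U6, had the highest level. It had 613, 757 and 269.6 normalised counts with JPX-0700, 623, 841 and 493 with JPX-0750, and 1023, 380.0 and 689 with DMSO. The groups overlapped (-0.19 ± 0.45 for both compounds, SE, limma adjusted p = 0.844), and its sign turned without DMSO replicate 1 (0.14) or JPX-0700 replicate 3 (0.031), and when the 3 libraries that stood apart were left out (0.46). PRPF3, a U4/U6 protein, was at 277, 276 and 528 with JPX-0700, 239.6, 205 and 165 with JPX-0750, and 55.7, 104 and 171 with DMSO. Its JPX-0700 libraries lay wholly above DMSO, at 1.77 ± 0.59 (SE, limma adjusted p = 0.0965), against 0.999 ± 0.59 with JPX-0750 (limma adjusted p = 0.466). PRPF4, the partner of PRPF3 in U4/U6, had 140.4, 209 and 60.0 with JPX-0750 and 377, 210.1 and 289 with DMSO (-1.22 ± 0.67, SE, limma adjusted p = 0.430), opposite in sign to PRPF3. SNRNP40 had 13.8, 29.8 and 0 with JPX-0700, 51.3, 27.3 and 36.7 with JPX-0750, and 48.5, 49.8 and 44.1 with DMSO, which rest on 3, 8 and 0 reads with JPX-0700. The 0 in JPX-0700 replicate 3 allows up to 8.34 normalised counts (3 reads), a limit that covers counting error only because no molecular identifiers are named.

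Of the 2 U11/U12 proteins, which serve the minor introns, SNRNP25 had 143, 164 and 911 normalised counts with JPX-0700, 178, 114 and 110.0 with JPX-0750, and 342, 349 and 259 with DMSO. JPX-0700 replicate 3 was above every other library, and all 5 other compound libraries were below DMSO. The log2 fold change for both compounds was -0.72 ± 0.57 (SE, limma adjusted p = 0.503), and without JPX-0700 replicate 3 it was -1.14 (limma adjusted p = 0.0363), and SNRNP25 passed with JPX-0750 as well. SNRNP35 overlapped DMSO with either compound.

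Members whose libraries lay wholly on one side of DMSO are given here beside the share of all tested genes. With JPX-0700 they were PRPF3 above (2.86% of 35, against 16.5% of all tested genes) and LSM4 and SNRNP40 below (5.71%, against 10.3%). With JPX-0750 LSM6 was above (2.86%, against 19.7%) and 7 were below (20.0%, against 9.18%), namely LSM4, PRPF4, SF3A1, SF3B2, SNRNP25, TXNL4A and U2AF2. SF3B2 and PRPF4 were separated only narrowly. Their highest JPX-0750 values were 618 (136 reads) and 209 (46 reads), and their lowest DMSO values 622 and 210.1. With all 6 compound libraries in 1 group, 0 members were wholly above (against 9.52%) and LSM4 was wholly below (2.86%, against 4.52%).

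JPX-0750 and JPX-0700 were then compared with each other at 24 h, their doses not being given. Of the 35 members, 0 rose and 0 fell with JPX-0750 relative to JPX-0700, where 0% of all tested genes did either, and the smallest adjusted p was 0.848 (limma). No member, and 395 of all tested genes, had an unadjusted p under 0.05. The 95% interval of the difference reached 0.85 to 2.80 log2 units on each side of the estimate (median 1.23), so smaller differences were not detectable in this design. These intervals are not adjusted for the number of genes, so the adjusted threshold asked for larger differences than that. LSM4 differed by -0.74 ± 0.52 and TXNL4A by -0.98 ± 0.54 (SE).

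The share of all reads that fell on the 40 genes was lower with both compounds. It was 0.351%, 0.385% and 0.472% with JPX-0700, 0.326%, 0.385% and 0.524% with JPX-0750, and 0.718%, 0.755% and 0.716% with DMSO. All 6 compound libraries lay below all 3 DMSO libraries, and replicate 3 was the highest in both compound groups. Group values were 0.403% ± 0.0623 with JPX-0700, 0.412% ± 0.102 with JPX-0750 and 0.730% ± 0.0218 with DMSO (SD, n = 3 each). With structured small RNA genes and MALAT1 left out of the total, the shares were 0.475% ± 0.0655 with JPX-0700, 0.504% ± 0.116 with JPX-0750 and 0.733% ± 0.0200 with DMSO. No test was made, because the genes were chosen.

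On the scale of the deposited normalised counts the picture was narrower. The members summed to 11964, 12794 and 24285 normalised counts with JPX-0700, 11941, 12710.3 and 16966 with JPX-0750, and 17409, 18252 and 15565 with DMSO. Replicates 1 and 2 of both compounds were below every DMSO library on that scale, whereas JPX-0700 replicate 3 was above every DMSO library. Both measures use the same member reads, divided by a library's reads for the share and multiplied by its normalised counts per read for the sum. They therefore differ only by library scaling. Over all genes, normalised counts totalled 3.24e+06 to 5.15e+06 in the compound libraries, highest in JPX-0700 replicate 3. Those totals were 2.17e+06 to 2.43e+06 in the DMSO libraries. Why the scaling differed between libraries was not tested.

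**Figure D4:**
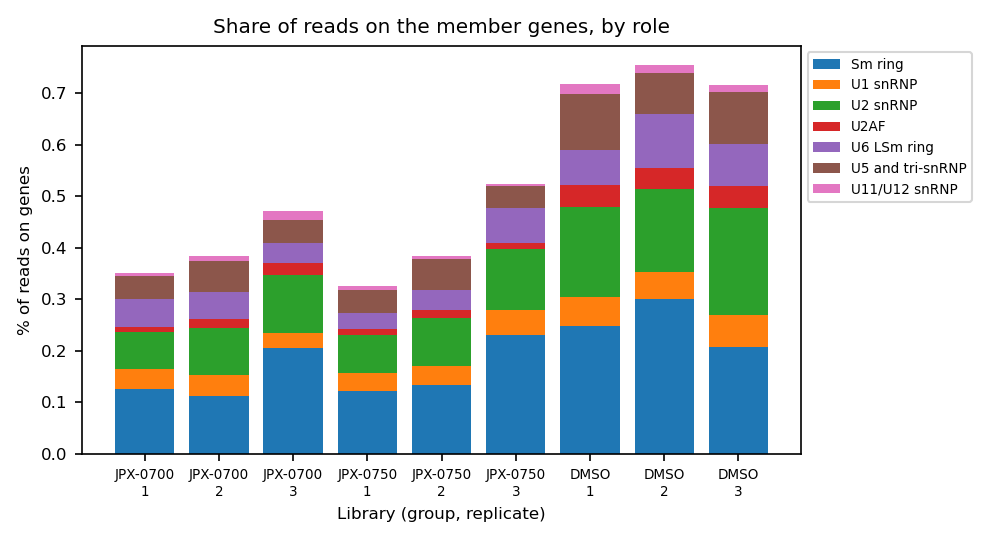
Share of reads on genes that fell on the 40 members, in percent, stacked by role, for replicates 1 to 3 of JPX-0700, JPX-0750 and DMSO from left to right. The 6 compound libraries reach 0.326% to 0.524% and the DMSO libraries 0.716% to 0.755%.

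The 5 members listed at 0 in all 9 libraries were SNRPN, a Sm protein gene used mainly in brain, LSM2 of the U6 ring, U2AF1, the small U2AF subunit, PRPF8, the protein at the catalytic centre, and PRPF31 of U4/U6. They had 0 reads. Every spliceosome needs PRPF8, so a listed 0 is not read as absence. Of 19072 protein-coding genes, 4258 (22.3%) were at 0 in all libraries, against 5 of 40 members (12.5%). U2AF1 has a near-identical copy in this assembly, U2AF1L5, which had 0 reads as well, and SNURF, which shares transcripts with SNRPN, had 2 reads in all.

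Other splicing genes were taken from 9 lists holding 133 genes, of which 124 were tested: further LSm proteins, remaining U2 and tri-snRNP proteins, snRNP assembly factors, the PRP19 complex with catalytic-step factors, SR proteins, SR protein kinases, hnRNP proteins, the exon junction complex and minor spliceosome proteins. With JPX-0700, 4 of the 124 rose and 2 fell, where 5.28% of all tested genes rose and 0.496% fell. With JPX-0750, 3 rose and 0 fell, against 3.9% and 0.0732% of all tested genes. For both compounds 6 rose and 1 fell, against 6.04% and 0.48%. Between the compounds 0 rose and 0 fell, as for all tested genes. Among the 14 SR proteins, 4 further LSm proteins and 16 assembly factors tested, none passed the threshold in any comparison. The median log2 fold change for both compounds was -0.61 over the assembly factors and -0.80 over the 25 hnRNP genes, and 0.59 over the 24 PRP19 and catalytic-step genes, where all tested genes had 0.19.

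CLK1, a kinase that phosphorylates SR proteins, was at 1438, 1509 and 2326 normalised counts with JPX-0700, 1540.5, 982 and 1601 with JPX-0750, and 101, 130.0 and 116 with DMSO. The groups were far apart, and CLK1 rose 14.8-fold with JPX-0700 (log2 3.89 ± 0.43, SE, limma adjusted p = 1.1e-05) and 11.6-fold with JPX-0750 (3.53 ± 0.43, limma adjusted p = 2.97e-05). RNPC3, a U11/U12 protein that binds the minor spliceosomal RNAs, was at 1299.6, 615 and 689 with JPX-0700, 965, 728 and 626 with JPX-0750, and 71.8, 45.2 and 143 with DMSO. It rose with JPX-0700 (3.39 ± 0.53, limma adjusted p = 0.000445) and with JPX-0750 (3.28 ± 0.53, limma adjusted p = 0.00068). CLK1 and RNPC3 kept their calls under every alternative run.

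PRPF4B, a kinase of tri-snRNP proteins, was at 2549, 2635 and 3635 normalised counts with JPX-0700, 3516, 2960.4 and 1931 with JPX-0750, and 842, 620.4 and 1298 with DMSO. It rose with JPX-0700 (1.72 ± 0.42, SE, limma adjusted p = 0.0175) and JPX-0750 (1.63 ± 0.42, limma adjusted p = 0.0326). Equal totals, TMM scaling, quantile normalization and leaving out DMSO replicate 1 or 2 ended both calls. Fitting only the compared groups ended the JPX-0700 call, and leaving out JPX-0750 replicate 1 or 2 ended the JPX-0750 call. PNN, a protein associated with the exon junction complex, rose with JPX-0700, at 2649.9, 2721 and 2598 against 873, 523 and 1096 with DMSO (1.74 ± 0.41, limma adjusted p = 0.0153), a call that ended without DMSO replicate 2 and under equal totals, quantile normalization or a fit of only the compared groups. It was at 2704, 2210.1 and 1533 with JPX-0750. Its log2 fold change with JPX-0750 was 1.397 ± 0.41 (limma adjusted p = 0.0701).

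PPIH, a cyclophilin bound to PRPF3 and PRPF4 in the tri-snRNP, was at 92.2, 74.5 and 41.7 normalised counts with JPX-0700, 103, 123 and 132 with JPX-0750, and 378, 334 and 218 with DMSO. All 6 compound libraries lay below DMSO. PPIH fell with JPX-0700 (-2.18 ± 0.62, SE, limma adjusted p = 0.0467), and its log2 fold change with JPX-0750 was -1.34 ± 0.62 (limma adjusted p = 0.332). The call ended without any 1 DMSO library, without replicate 1 or 2 of either compound, without the filter, in a fit of only the compared groups and with limma-voom. PTBP1, an hnRNP that represses exons, was at 179.7, 350.3 and 395 with JPX-0700, 270.4, 387 and 865 with JPX-0750, and 956, 1366 and 1118 with DMSO. Again all 6 compound libraries lay below DMSO. PTBP1 fell with JPX-0700 (-1.96 ± 0.51, SE, limma adjusted p = 0.0292) and for both compounds (-1.65 ± 0.44, limma adjusted p = 0.0305). The JPX-0700 call ended without any 1 DMSO library or JPX-0700 replicate 1 and in a fit of only the compared groups. The call for both ended without any 1 DMSO library, JPX-0700 replicate 1, or JPX-0750 replicate 1 or 2.

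PRPF18, a factor of the second catalytic step, was at 217, 552 and 286 normalised counts with JPX-0700, 513, 496 and 212 with JPX-0750, and 122, 51.4 and 113 with DMSO. BUD31, a protein of the activated spliceosome, was at 277, 190.1 and 528 with JPX-0700, 229, 214 and 168 with JPX-0750, and 60.2, 38.7 and 122 with DMSO. For both genes all 6 compound libraries lay above DMSO. For both compounds PRPF18 rose by 1.96 ± 0.52 on the log2 scale (SE, limma adjusted p = 0.0286) and BUD31 by 1.89 ± 0.55 (limma adjusted p = 0.0466). Both calls ended under equal totals and TMM scaling, and without DMSO replicate 1 or 2 or JPX-0750 replicate 1 or 2. The PRPF18 call also ended without DMSO replicate 3 or JPX-0700 replicate 2 and under quantile normalization, and the BUD31 call without JPX-0700 replicate 1 and without the filter.

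**Figure D5:**
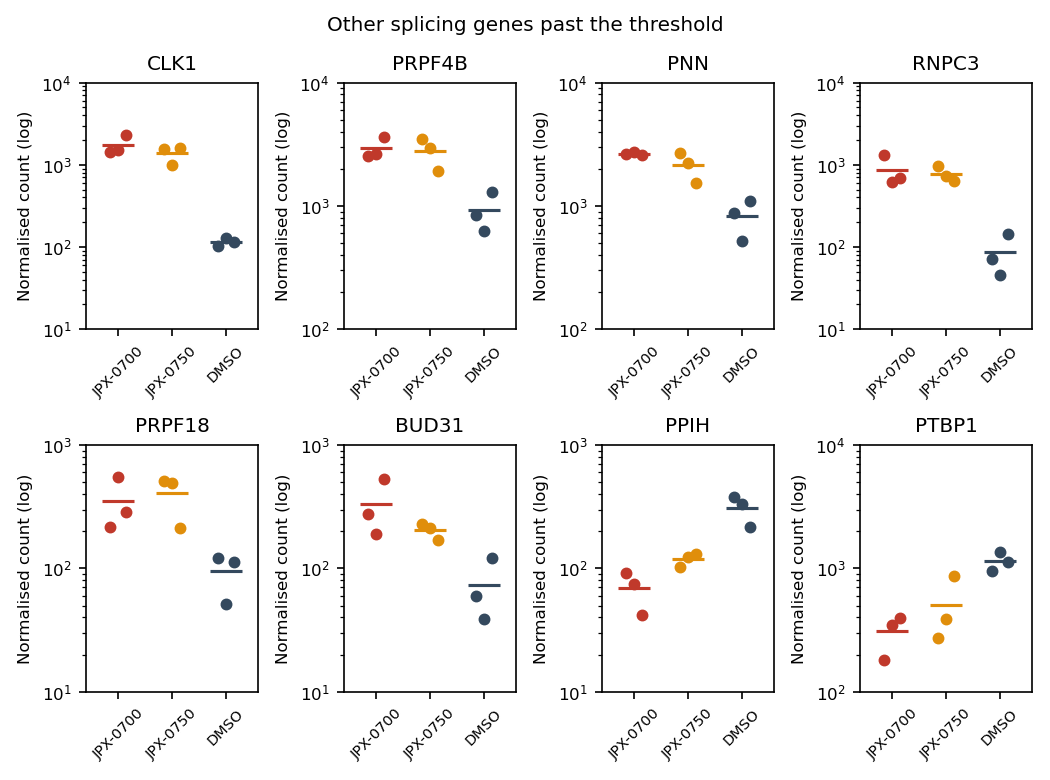
Normalised counts, on log axes, of 8 other splicing genes that passed the threshold in at least 1 comparison, by library (points, replicates 1 to 3 from left to right) with group means (bars). CLK1 and RNPC3 stand above DMSO in all 6 compound libraries by the widest margin, and PPIH and PTBP1 stand below it.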

How the data were processed

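The submitters' processing notes name FastQC 0.11.9, SAMtools 1.4, STAR 2.4.2a, featureCounts 2.0.3, DESeq2 and the build GRCh38; strand and annotation settings are not stated there. The authors deposited 1 table of normalised counts for 26929 genes in 9 libraries. Divided by its library's smallest value above 0, every value gave a whole number (100%, tolerance 1e-06), taken as reads.

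Tests used limma 3.58.1 in R 4.3.3, with a variance trend, on log2(normalised count + 1), a scale that understates folds of low genes. Genes averaging at least 5 over the 9 libraries were fitted with 1 mean per group (6 residual degrees of freedom), two-sided, with Benjamini-Hochberg adjustment over 12301 genes. The procedure was tested on simulated data. Members and gene lists were chosen with earlier results of these data known. Values per library are given for members past the threshold, the member with the highest mean in each of 7 roles, and further members chosen after their values were seen, among them SNRPB, SNRPC, SF3B1, SF3B2, SF3A1, PRPF3, PRPF4, LSM5, LSM6 and SNRNP40. Other splicing genes are named where they passed the threshold. Alternatives covered scaling, pseudocount (0.5 and 5), filter (none and a mean of 50), the groups fitted, single libraries left out, the replicate number as a block, limma-voom on recovered reads and the removal of 3 libraries. Same-numbered JPX-0700 and JPX-0750 libraries had weakly correlated deviations from their group means (0.129, 0.171 and 0.190 for replicates 1, 2 and 3). The labels name no pairs, and these values do not establish any. Replicate 3 detected the fewest genes in both groups, and its part in these correlations was not tested.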

Additional observations from a re-analysis of the deposited data

How the results depend on the processing

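Precision is limited by 3 libraries a group and by compound libraries of 726043 to 1941860 reads. Members called with JPX-0700 (0) became 2 under equal totals, 1 under quantile normalization, 4 without the 3 libraries that stood apart, and 0 to 2 with single libraries left out. With JPX-0750 the 2 calls became 0 without the filter, 5 without the 3 libraries, and 0 to 4 with single libraries left out. Here 0.0732% of all tested genes fell in the main fit, 0.0332% without the filter and 3.05% without the 3 libraries. The share was 0.854% without JPX-0700 replicate 3, where 4 members were called. For both compounds the 1 call became 4 under equal totals, 2 under TMM scaling, 3 under quantile normalization, 0 without the filter, 2 with a mean of at least 50, 7 without the 3 libraries, 4 with limma-voom, and 0 to 5 with single libraries left out. Downward calls over all tested genes moved too, from 0.48% to 2.53% under equal totals, 0.927% under TMM scaling and 3.30% under quantile normalization. They were 0.205% without the filter, 1.12% with a mean of at least 50, 5.36% without the 3 libraries and 4.50% with limma-voom. Without JPX-0700 replicate 3, where 5 members were called, they were 2.24%. Between the compounds 0 members and 0 genes were called under every alternative run. Signs turned for SNRPD2 under equal totals (-0.32) and quantile normalization (-0.061), SNRNP70 under equal totals (-0.088), and LSM7 under equal totals (-0.34) and without the 3 libraries (-0.045). With single libraries left out SNRPB2 ran from -0.40 to 0.058 and PRPF6 from -0.57 to 0.14, and PRPF6 was 0.46 without the 3 libraries; the cause was not tested. The share of reads with JPX-0700 was 0.475% without structured small RNA genes and MALAT1. All genes called, rising and falling together, ran from 390 to 954 (JPX-0700), 254 to 1096 (JPX-0750) and 436 to 1705 (both) with single libraries left out. Without the 3 libraries they were 2158 rising and 443 falling with JPX-0700, 2184 and 375 with JPX-0750, and 2740 and 659 for both.

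With the replicate number as a block, 0 members were called with JPX-0750 and 0 for both compounds, where 0.0813% and 0.455% of all tested genes fell. LSM4 and TXNL4A then had limma adjusted p of 0.0570 and 0.0609 with JPX-0750. LSM4 for both compounds had 0.0556, PPIH with JPX-0700 0.0678 and BUD31 for both compounds 0.0531. No other call of the named genes, and none between the compounds, changed with the block. Between either compound and DMSO, the deviations of same-numbered libraries had correlations of -0.143 to -0.044. The main fit, with 1 mean per group, took no libraries as pairs. The count tests edgeR and DESeq2 were planned on recovered reads and not run.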
